A study of Mus with 8 samples.

Results

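The complement system of plasma was examined in RNA from mouse liver, using 33 genes chosen by symbol: components of the classical, lectin, alternative and terminal pathways, regulators, and receptors. The choice was made with earlier results of these data known. All 33 were found among the 54532 genes of the deposited table, each in a single row, and 32 passed the filter on low counts. All 8 libraries came from mice with colitis induced by dextran sulfate sodium (DSS), a polysaccharide that injures the colonic epithelium, which was given at 2.5% until day 6. By their labels, 4 libraries (15, 48, 49 and 50) received DSS and 4 (35, 45, 65 and 71) received alcohol, a high-fat diet and DSS, here called the diet-alcohol group. Strain, sex, age and the feed of the DSS group are not given in the labels, no mice without DSS were analysed here, and alcohol and diet were given together, so their contributions cannot be told apart. The labels do not say that each library came from a separate mouse, so the spread behind the p-values is that between libraries and may be technical.

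Complement is a cascade of plasma proteases and binding proteins, most of which hepatocytes secrete. Antibody-bound C1 starts the classical pathway, mannose-binding lectins and collectins start the lectin pathway, and factor B, factor D and properdin amplify deposition of C3 through the alternative pathway. All routes cleave C3 and then C5, after which C6, C7, C8 and C9 assemble the membrane attack complex. Several components, C3 among them, are known as acute-phase proteins whose transcripts increase in liver under cytokine signals, whereas the C1q chains are made mainly by macrophages, which in liver are the Kupffer cells.

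The libraries held 12502300 to 16967839 counts each. Transcripts of the mitochondrial genome made up 65.2% ± 11.4 of the counts in the DSS group and 45.2% ± 19.2 in the diet-alcohol group (SD, n = 4 each; two-sided exact permutation test, p = 0.143, where the smallest possible p is 0.0286). Nuclear genes therefore shared 2722757 to 10947612 counts per library. Library 35 stood apart, with 784 genes that had between 1 and 9 counts where each of the other 7 libraries had 4319 to 4987, so the main results are also given without it where it moved them. The tissue label was checked against hepatocyte markers: all 12, albumin among them, were tested and none passed in either direction, and their summed level was 50216 to 78898 CPM in the DSS libraries and 35073 to 45405 in the diet-alcohol libraries. Every diet-alcohol sum was thus below every DSS sum, and the median log2 fold change of the list was -0.34. The part of this difference in the complement values was not tested. CPM here are counts scaled to the size of each library after TMM normalization.

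Of the 32 complement genes tested, 3 fell in the diet-alcohol group and none rose (adjusted p under 0.05 in edgeR's quasi-likelihood test). The 3 were Mbl2, which encodes mannose-binding lectin C, and C6 and C9, which encode components of the membrane attack complex. The share of 9.38% stood beside 0.674% of all 11729 genes tested that fell, while 0.588% of all genes rose. Because the genes were chosen with earlier results of these data known, these shares are a description and no test of enrichment. At an unadjusted p under 0.05, 8 of the 32 had lower values and 3 had higher ones, where 5.72% and 5.94% of all genes did. DESeq2 called 6 lower and none higher, adding C8g, C1ra and C8b to the same 3, where 1.71% of all genes with an adjusted p were lower and 1.41% higher. The CPM of the 4 diet-alcohol libraries all lay below those of the 4 DSS libraries for 6 of the 32 genes and all above for 2, against 4.63% and 4.14% of all genes. C5ar1, among the genes all above and among those higher at an unadjusted p under 0.05, passed the filter through its diet-alcohol libraries. The median log2 fold change over the 32 was 0.085, and over all genes tested it was -0.0058, and 17 of the 32 had positive and 15 negative values.

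Without library 35, 5 complement genes fell (1.37% of all genes did) and 1 rose (1.17%). With the mitochondrial share of counts as a covariate none fell, where 0.23% of all genes did, and none rose; the fold changes of Mbl2, C6 and C9 stayed at -2.51, -1.72 and -1.20 with adjusted p = 0.055, 0.068 and 0.138 (edgeR). In bulk tissue, fewer cells of a type and less RNA per cell cannot be told apart, and this holds for every value given here.

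**Figure D1:**
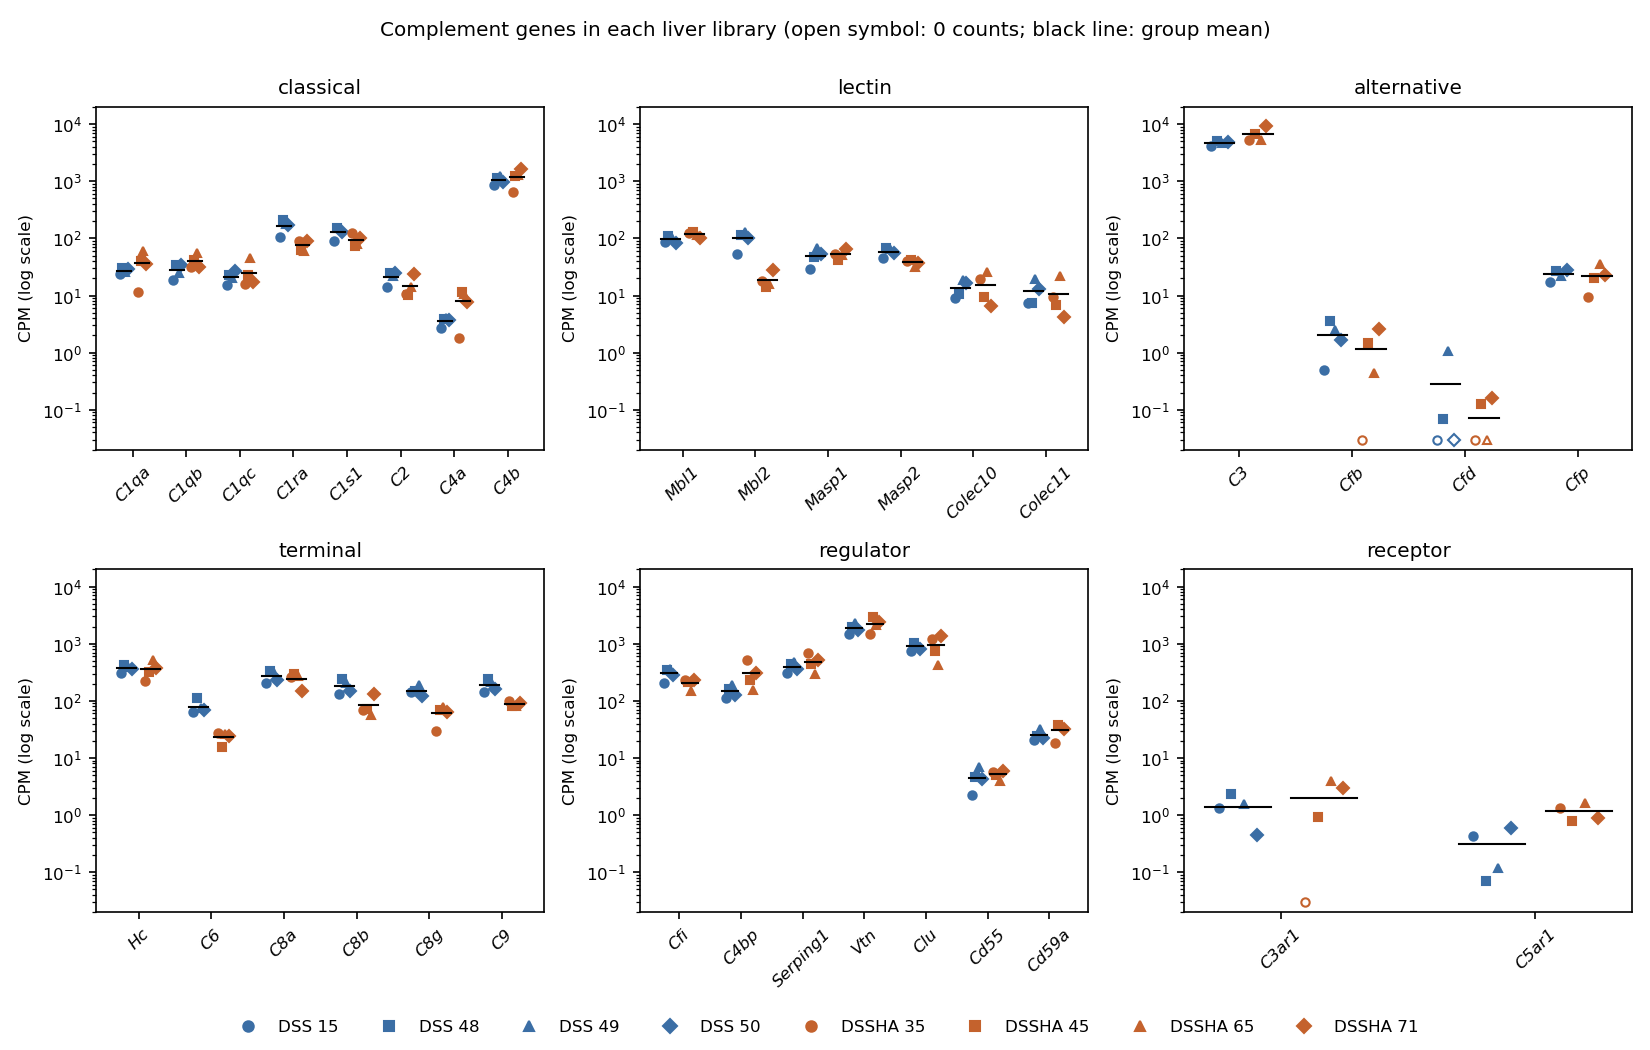
Levels in CPM (log scale) of the 33 complement genes in each of the 8 liver libraries, by role, with DSS in blue, diet-alcohol in orange (labelled DSSHA), group means as black lines and open symbols at the bottom for 0 counts. Mbl2, C6, C9, C8g, C1ra and Masp2 have all 4 diet-alcohol libraries below the 4 DSS libraries, and C3 and C5ar1 have all 4 above. C5ar1 passed the filter on low counts through its diet-alcohol libraries.

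Per unit of gene length, vitronectin (Vtn) and C3 were the most abundant of these transcripts. In the deposited FPKM, which divide by gene length, Vtn stood at 905 ± 177 in the DSS group and C3 at 889 ± 73.7 (SD, n = 4 each), and in the diet-alcohol group at 1072 ± 285 and 1257 ± 350.2. Clu, C4b and Serping1 followed, at 255 ± 39.1, 181 ± 27.4 and 168 ± 33.6 FPKM in the DSS group. Mbl2 ranked 8 of 33 in the DSS group and 19 in the diet-alcohol group, C8g went from rank 7 to 11, and C4bp from 19 to 10. Without library 35 the diet-alcohol ranks were 19, 10 and 14, and C4b stood before Clu. At the other end, C5ar1, Cfd and C3ar1 had means of 0.116, 0.304 and 0.321 FPKM in the DSS group. The 33 genes together took 2.71% ± 0.218 of the counts of nuclear genes in the DSS group and 3.25% ± 0.589 in the diet-alcohol group (SD, n = 4 each).

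None of the 8 classical pathway genes passed the test, with a median log2 fold change of 0.21. The initiating protease C1r is encoded by C1ra, which had 108, 207, 177 and 173 CPM in DSS libraries 15, 48, 49 and 50. In diet-alcohol libraries 35, 45, 65 and 71 it had 88.4, 63.6, 61.3 and 90.2 CPM. All 4 diet-alcohol values lay below the lowest DSS value, and the log2 fold change of -1.13 ± 0.25 (SE) missed the threshold (edgeR adjusted p = 0.059). It passed without library 35 (-1.21, adjusted p = 0.019) and without DSS library 15 (-1.30, adjusted p = 0.028), and with DESeq2 (adjusted p = 0.0026), and it did not pass in the other 6 fits that left out 1 library (edgeR adjusted p up to 0.230).

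C1s1 encodes C1s, the protease that C1r activates and that cleaves C4 and C2. Its gene lies beside C1ra on chromosome 6, with 6.90 kb and no coding gene between them (C1ra at 124512405 to 124523443, GRCm38). C1s1 had 89.4 to 154 CPM in the DSS group and 73.7 to 126 in the diet-alcohol group, the groups overlapped, and the log2 fold change was -0.47 (95% interval -1.03 to 0.081). Substrate C2 stood at -0.53, with an interval of -1.21 to 0.16.

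The genes of the 3 chains of C1q, the part of C1 that binds antibody, lie together on chromosome 4 (C1qa at 136895917 to 136898803, GRCm38). Their log2 fold changes were 0.43 for C1qa, 0.52 for C1qb and 0.23 for C1qc, none past the test, with the upper ends of the 95% intervals at 1.27, 1.11 and 0.97. Library 65 had the highest value of all 8 for each chain, at 59.0, 56.2 and 44.6 CPM. Library 35 had 11.5 CPM of C1qa, the lowest of the 8, beside 31.3 of C1qb, and without it the log2 fold changes were 0.72, 0.62 and 0.39, again with no call. Without library 65 they were 0.10, 0.31 and -0.20. Of 12 Kupffer cell markers, all tested, Marco rose and the others did not pass. The list's summed level ran from 249 to 389 CPM in the DSS group and from 378 to 696 in the diet-alcohol group. Library 71 had the highest sum, at 696 CPM, and library 65 had 650.4. In library 71, C1qb and C1qc lay within the range of the DSS group and C1qa lay above it. The part of macrophage number in the C1q values was not tested.

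C4b encodes C4, which is cleaved by C1s and by the lectin pathway protease MASP-2, and it was the most abundant classical transcript at 1054 ± 163 and 1204 ± 400.4 CPM (SD, n = 4 each). Its log2 fold change was 0.19, with a 95% interval of -0.44 to 0.82. The neighbouring copy C4a, 65.2 kb away on chromosome 17, encodes the sex-limited protein of mice, and it had 2.74, 3.86, 4.07 and 3.72 CPM in the DSS libraries. In the diet-alcohol libraries C4a had 1.79, 11.5, 10.5 and 7.70 CPM. Library 35 was thus below every DSS library and the other 3 above, and the log2 fold change of 1.13 (edgeR adjusted p = 0.380) became 1.47 without library 35, where C4a passed (adjusted p = 0.0092), as it did in none of the other 7 fits without 1 library (up to 0.657). C4a and C4b are close to identical in sequence, reads from one may have been counted to the other, and C4a had 0.00314 of the C4b level per kilobase in the DSS group, so its counts are uncertain.

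Of the 6 lectin pathway genes Mbl2 fell, none rose and 5 did not pass (median log2 fold change -0.033). Mbl2 (ENSMUSG00000024863, chromosome 19, 30232928 to 30239685, GRCm38) had 52.6, 116, 132.0 and 99.7 CPM in the DSS libraries and 18.1, 14.1, 15.7 and 27.5 CPM in the diet-alcohol libraries. Every diet-alcohol library was below every DSS library, and the log2 fold change was -2.40 ± 0.32, or 5.29-fold lower (edgeR adjusted p = 0.0048). The call held in each of the 8 fits that left out 1 library, at -2.65 to -2.25 with adjusted p up to 0.026.

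The other mannose-binding lectin of mice, mannose-binding lectin A, is encoded by Mbl1 on chromosome 14. Mbl1 had 86.7, 111, 102 and 83.7 CPM in the DSS libraries and 125, 132, 116 and 101 CPM in the diet-alcohol libraries. These groups overlapped, and the log2 fold change was 0.30 (95% interval -0.12 to 0.73). Per kilobase of gene, the Mbl2 level within a library was 0.865, 1.49, 1.85 and 1.70 times that of Mbl1 in the DSS libraries and 0.207, 0.153, 0.193 and 0.389 times in the diet-alcohol libraries. This ratio needs no scaling between libraries, and its mean was 1.47 ± 0.433 against 0.236 ± 0.105 (SD, n = 4 each), 6.26-fold apart.

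Masp2 encodes the protease that cleaves C4 and C2 once a lectin has bound. It had 46.1, 67.2, 66.4 and 55.7 CPM in the DSS libraries and 40.9, 41.8, 32.1 and 37.7 in the diet-alcohol libraries. The groups did not overlap, but the log2 fold change of -0.63 ± 0.20 was not past the test (edgeR adjusted p = 0.206). Masp1, whose protease activates MASP-2, stood at 0.11 with an interval of -0.47 to 0.69. The collectin genes Colec10 and Colec11, whose products also bind sugars and carry these proteases, stood at 0.16 and -0.17. Colec11 ran from 7.29 to 19.7 CPM within the DSS group and from 4.21 to 22.0 within the diet-alcohol group, and Colec10 from 9.17 to 18.5 and from 6.55 to 25.8. Colec10 is also among 12 stellate cell markers, none of which passed; their sum ran from 138 to 354 CPM in the DSS group and from 117 to 385 in the diet-alcohol group, and its part in the collectin values was not tested.

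Of 4 alternative pathway genes, 3 were tested and none passed (median -0.10). C3 (chromosome 17, 57203970 to 57228136, GRCm38), on which all routes converge, had 4075, 5035, 4773 and 4801 CPM in the DSS libraries and 5280, 6704, 5228 and 9230 in the diet-alcohol libraries. Each diet-alcohol value was above the highest DSS value, with library 71 the highest of all, and the log2 fold change of 0.50 ± 0.27 was not past the test (95% interval -0.10 to 1.10; edgeR adjusted p = 0.539). Without library 71 the log2 fold change was 0.29. C3 alone took 1.12% ± 0.0732 of nuclear counts in the DSS group and 1.60% ± 0.425 in the diet-alcohol group (SD, n = 4 each). In the same libraries 13 of 28 acute-phase genes rose and none fell, where 0.588% of all genes tested rose and 0.674% fell. Among the 13 were Saa1, Orm2, Hp and Lcn2. This list was drawn up with earlier results of these data known. Its summed level was 15103 to 19238 CPM in the DSS group against 60174 to 98294 in the diet-alcohol group. The part of an acute-phase response in the C3 values was not tested.

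Factor B, the protease of the alternative pathway C3 convertase, is encoded by Cfb. Cfb had 8, 50, 21 and 11 counts in the DSS libraries and 0, 36, 4 and 66 in the diet-alcohol libraries, or 0.499 to 3.51 and 0 to 2.62 CPM. Cfb lies 85 bases from C2 on the same strand of chromosome 17. How reads that reach both genes were counted is not given, so the levels of Cfb and C2 are uncertain. The count of 0 in library 35 allows up to 0.168 CPM (3 counts) from counting error alone. That library had only 784 genes with 1 to 9 counts, so the limit may not hold there. The log2 fold change of -0.80 had an interval of -2.99 to 1.38 (edgeR adjusted p = 0.828), with a wide spread between libraries in both groups. It was -0.36 without library 35, -0.39 without DSS library 48, -1.61 without library 71 and -1.95 with the mitochondrial covariate, with no call in these fits. Cfd, which encodes factor D and is known mainly from fat tissue, had 0, 1, 9 and 0 counts in the DSS libraries and 0, 3, 0 and 4 in the diet-alcohol libraries, and it was the 1 gene that failed the filter. Cfp encodes properdin, a stabilizer of the convertase that myeloid cells make, and it stood at -0.10 with an interval of -0.87 to 0.66.

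All 6 terminal pathway genes were tested; 2 fell, C6 and C9, none rose, and all 6 had negative log2 fold changes (median -1.12, from -1.75 to -0.053). That median was -1.07 without library 35 and -1.21 with the mitochondrial covariate, but in these fits Hc had a positive value (0.12 and 0.15), as it did without DSS library 48 (0.025). C6 (ENSMUSG00000022181, chromosome 15, 4727175 to 4814967, GRCm38) binds activated C5 as the next step of the attack complex. It had 62.5, 111, 74.2 and 69.1 CPM in the DSS libraries and 27.6, 15.5, 26.5 and 24.5 in the diet-alcohol libraries. The highest diet-alcohol value was below the lowest DSS value, the means being 79.1 ± 21.6 and 23.5 ± 5.53 CPM (SD, n = 4 each). This was a log2 fold change of -1.75 ± 0.26, or 3.37-fold lower (edgeR adjusted p = 0.0077). The C6 call held in all 8 fits that left out 1 library, with adjusted p up to 0.037.

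C9, which polymerizes into the pore, lies on the same chromosome (ENSMUSG00000022149, 6445327 to 6498751, GRCm38), 1630.4 kb from C6 with 8 coding genes between. It had 144, 242, 216 and 163 CPM in the DSS libraries and 97.8, 82.0, 81.4 and 93.3 in the diet-alcohol libraries. The diet-alcohol values were close to each other and all below the DSS values, with a log2 fold change of -1.11 ± 0.22, or 2.16-fold lower (edgeR adjusted p = 0.034). The C9 call was lost in 6 of the 8 fits that left out 1 library. Among DSS libraries the adjusted p (edgeR) was 0.161 with 48 left out, 0.136 with 49 and 0.080 with 50, and among diet-alcohol libraries 0.127 with 45 left out, 0.065 with 65 and 0.070 with 71, with log2 fold changes of -0.98 to -1.19 in these fits.

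C8 is built of 3 chains from separate genes. C8g, which encodes the gamma chain, a lipocalin, had 144, 151, 189 and 122 CPM in the DSS libraries and 29.1, 70.3, 78.5 and 64.6 in the diet-alcohol libraries. The groups did not overlap, and the log2 fold change was -1.32 ± 0.30 (edgeR adjusted p = 0.064), or -1.09 without library 35, where it passed (adjusted p = 0.014); it did not pass in the other 7 fits without 1 library (up to 0.219). C8b, the beta chain gene, had 131, 243, 208 and 151 CPM in the DSS libraries and 70.1, 73.0, 57.4 and 134 in the diet-alcohol libraries. Library 71 was within the DSS range and the other 3 were below it; the log2 fold change was -1.13 (edgeR adjusted p = 0.127), and -1.46 without library 71, where C8b passed (adjusted p = 0.037), as it did not in the other 7 (up to 0.410). C8a, the alpha chain gene, 11.1 kb from C8b on chromosome 4, had 208 to 337 CPM in the DSS group and 148 to 292 in the diet-alcohol group, with a log2 fold change of -0.18 (interval -0.77 to 0.41). Hc, the mouse gene of C5, stood at -0.053 (interval -0.64 to 0.53), with library 65 the highest at 512 CPM and library 35 the lowest at 223.

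**Figure D2:**
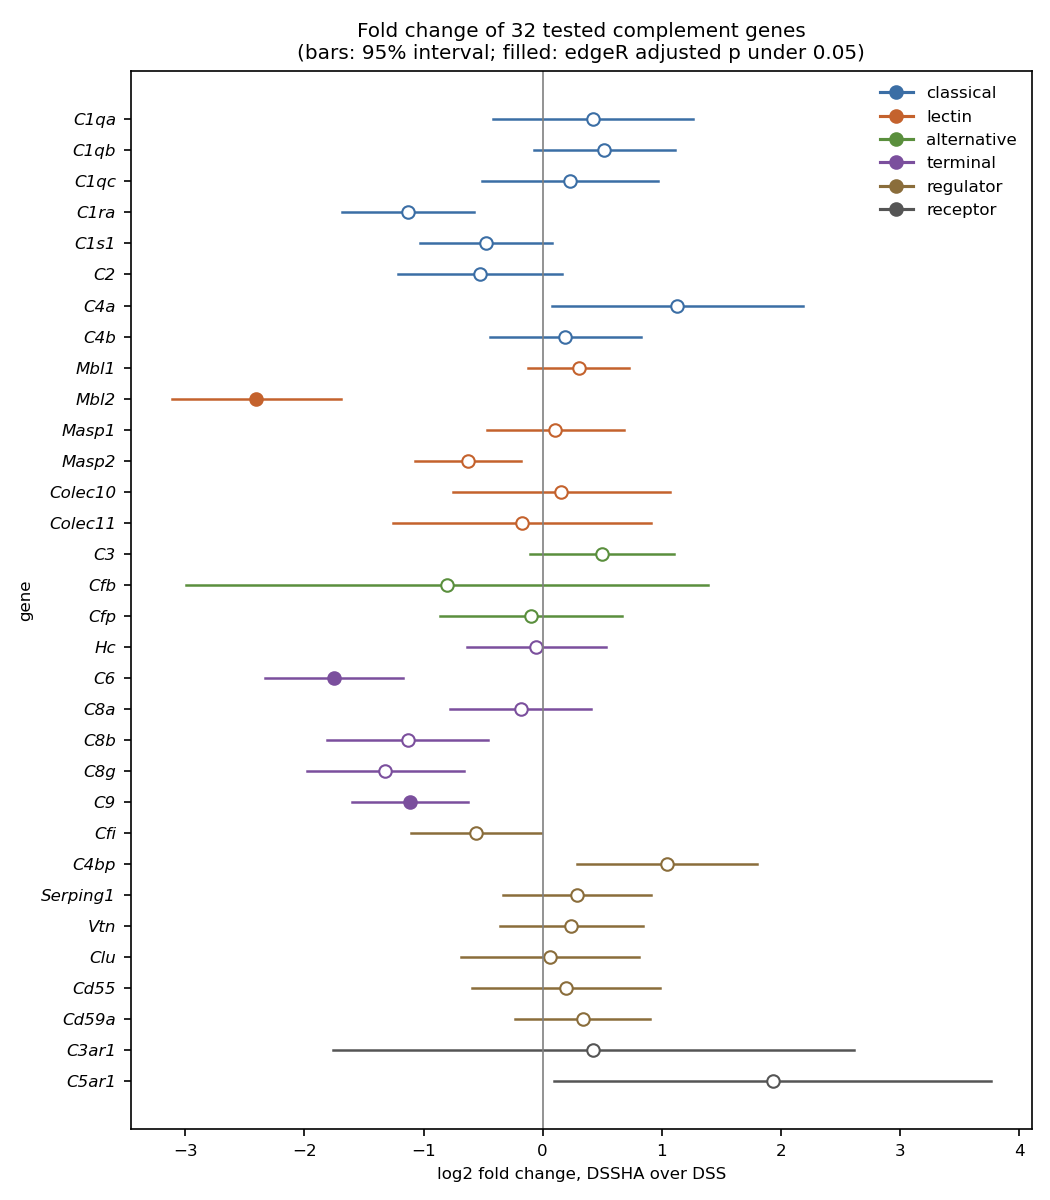
Log2 fold change of diet-alcohol (DSSHA) over DSS for the 32 complement genes tested, coloured by role, with 95% intervals and filled symbols for an edgeR adjusted p under 0.05. Mbl2 at -2.40, C6 at -1.75 and C9 at -1.11 are the filled symbols, and all 6 terminal genes lie left of 0 in this fit, whereas Hc turns positive without library 35, without DSS library 48 or with the mitochondrial covariate.

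Ratios between partner genes within a library were compared for 9 pairs, chosen after the values had been seen and given as a description. The groups did not overlap for 4 of the 9, where 14.1% of all 9537528 pairs of genes with a mean of at least 10 CPM did not. Besides Mbl2 over Mbl1, these were C1ra over C1s1, C8g over C8a and C9 over C8a. The pair C4a over C4b, whose groups overlapped, lies outside the set behind the 14.1%, as C4a had means of 3.60 and 7.88 CPM. C1ra over C1s1, the interacting proteases of C1, was 1.26, 1.41, 1.21 and 1.39 per kilobase in the DSS libraries and 0.734, 0.905, 0.816 and 0.937 in the diet-alcohol libraries. This pair had little spread within either group, 1.32 ± 0.0958 and 0.848 ± 0.0915 (SD, n = 4 each). C9 over C8a was 0.985 ± 0.0333 in the DSS group, and 0.538, 0.400, 0.421 and 0.894 in diet-alcohol libraries 35, 45, 65 and 71.

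C8b over C8a was 0.897, 1.03, 0.912 and 0.923 in the DSS libraries and 0.387, 0.357, 0.298 and 1.29 in the diet-alcohol libraries. Library 71 was thus above all DSS libraries for this pair and the other 3 diet-alcohol libraries were below them. Library 71 was also the diet-alcohol library nearest to the DSS group for C9 over C8a, C8g over C8a (1.06) and Mbl2 over Mbl1 (0.389). The ratios over C8a share that gene, which was lowest of all 8 libraries in library 71, at 148 CPM. Among diet-alcohol libraries, C8b and Mbl2 themselves were highest in library 71. C9 was highest in library 35 (97.8 CPM) and C8g in library 65 (78.5 CPM). C1qa over C1qb was 0.898 to 1.30 in the DSS group and 1.04 to 1.17 in 3 diet-alcohol libraries, with library 35 at 0.385.

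**Figure D3:**
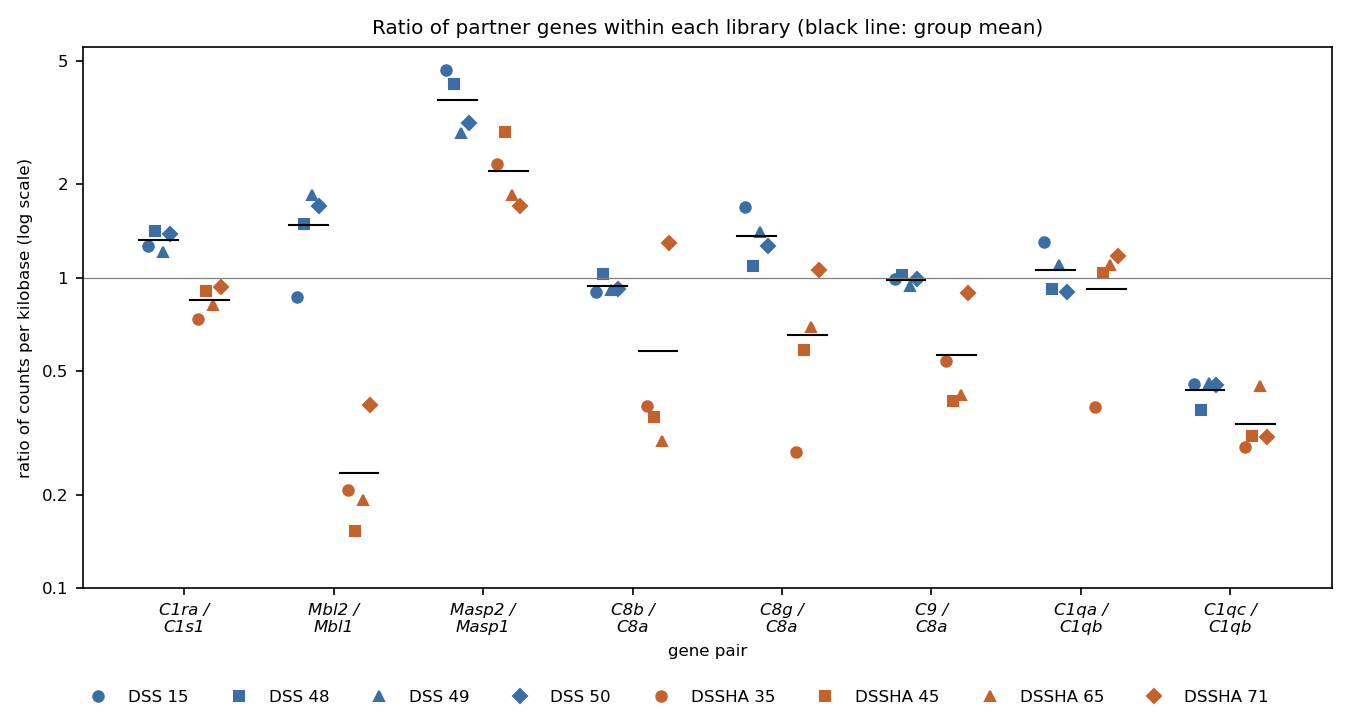
Ratio of the levels per kilobase of 8 pairs of partner genes in each library (log scale), with DSS in blue, diet-alcohol (DSSHA) in orange and group means as black lines. The groups are apart for C1ra over C1s1, Mbl2 over Mbl1, C8g over C8a and C9 over C8a, and library 71 lies at 1.29 for C8b over C8a where the other diet-alcohol libraries lie at 0.298 to 0.387.

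None of the 7 regulator genes passed the test, with a median log2 fold change of 0.24. C4bp, whose product binds C4b and helps to degrade it, had 111, 159, 188 and 128 CPM in the DSS libraries and 516, 232, 157 and 306 in the diet-alcohol libraries. Library 65 was within the DSS range, the other 3 were above it with library 35 the highest, and the log2 fold change was 1.05 ± 0.34 (edgeR adjusted p = 0.217). It was 0.66 without library 35 and 1.25 without library 65. Cfi encodes factor I, the protease that inactivates C3b and C4b, and had 205, 349, 363 and 289 CPM in the DSS libraries and 227, 210.4, 146 and 235 in the diet-alcohol libraries. These groups overlapped through DSS library 15, and the log2 fold change was -0.56 ± 0.25 (edgeR adjusted p = 0.416).

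Serping1, the inhibitor of C1r, C1s and the MASP proteases, stood at 0.29 (interval -0.33 to 0.91). Vtn and Clu encode vitronectin and clusterin, which keep the attack complex from inserting into membranes, and they stood at 0.24 (-0.36 to 0.84) and 0.063 (-0.68 to 0.81). Clu ranged from 423 CPM in library 65 to 1341 in library 71. The membrane-bound regulators Cd55, which speeds the decay of convertases, and Cd59a, which blocks C9, stood at 0.20 and 0.34, with upper interval ends of 0.99 and 0.90. Among the 4 diet-alcohol libraries, library 65 had the lowest value of Serping1, C4bp, Cfi, Clu and Cd55 and the highest of Cd59a, while Vtn was lowest in library 35.

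The anaphylatoxin receptors were scarce. C5ar1, the C5a receptor of myeloid cells, had 7, 1, 1 and 4 counts in the DSS libraries and 24, 19, 15 and 22 in the diet-alcohol libraries, so that it passed the filter on low counts through its diet-alcohol libraries. These were 0.0701 to 0.596 CPM against 0.782 to 1.66 CPM, and the fitted log2 fold change of 1.93 ± 0.83 was not past the test (edgeR adjusted p = 0.398). Of 12 neutrophil markers 5 were tested and 4 rose (S100a8, S100a9, Retnlg and Prtn3), where 0.588% of all genes tested rose. The list was drawn up with earlier results of these data known. Retnlg and Prtn3, with 9 and 21 counts in all DSS libraries together, passed the filter through their diet-alcohol counts, so the number that rose is in part set by the filter. Of the 12 markers, 9 had 0 counts in some library, and the sum of the 12 ran from 4.19 to 16.4 CPM in the DSS group and from 35.9 to 82.6 in the diet-alcohol group. The part of neutrophils in the C5ar1 values was not tested. C3ar1, the C3a receptor, had 21, 33, 13 and 3 counts in the DSS libraries and 0, 22, 36 and 74 in the diet-alcohol libraries, with an interval of -1.76 to 2.62 around a log2 fold change of 0.43. The C3ar1 value was 0.81 without library 35, -0.14 without library 65 and -0.99 with limma-voom, with no call in these fits.

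Single libraries differed across many of these genes. DSS library 15 had the lowest CPM of its group for 27 of the 32 genes tested and the highest for none, and its hepatocyte marker sum of 50216 CPM was also the lowest of that group. In the diet-alcohol group, library 35 was lowest for 11 genes and library 65 for 10, and libraries 65 and 71 were each highest for 11. C6 belongs with genes known to be expressed more in male than in female mouse liver, as does C4a. C6 fell. C4a, whose counts are uncertain, had a log2 fold change of 1.13 and did not pass with all libraries (edgeR adjusted p = 0.380). It was called higher without library 35. Of 18 other male-biased genes, a list drawn up with earlier results of these data known, 11 fell and none rose, where 0.674% of all genes tested fell. Their sum ran from 7172 to 12176 CPM in the DSS group and from 1745 to 3619 in the diet-alcohol group. The labels do not give sex, and the part of sex-biased expression in the C6 and C4a values was not tested.

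Of 30 further complement genes, 29 were listed in the table, 17 were tested and none passed in either direction (edgeR; 2 had higher and 5 lower values at an unadjusted p under 0.05; median log2 fold change -0.16). Of all genes tested, 5.94% had higher and 5.72% lower values at that unadjusted p.

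The 6 genes lower in the edgeR or DESeq2 fit kept negative fold changes in every fit run, while which of them passed differed. Mbl2 ran from -2.65 to -2.25 and C6 from -1.86 to -1.55 over the fits without 1 library, C9 from -1.23 to -0.98, C8g from -1.47 to -1.09, C1ra from -1.30 to -1.01 and C8b from -1.46 to -0.96. In the authors' deposited table, the adjusted p was 2.7e-10 for Mbl2, 4e-07 for C6, 0.0005 for C9, 0.0026 for C1ra, 0.0030 for C8g and 0.021 for C8b. The deposited fold changes and p-values of these genes nearly equal those of the DESeq2 fit on the same counts, so they are no separate check.

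**Figure D4:**
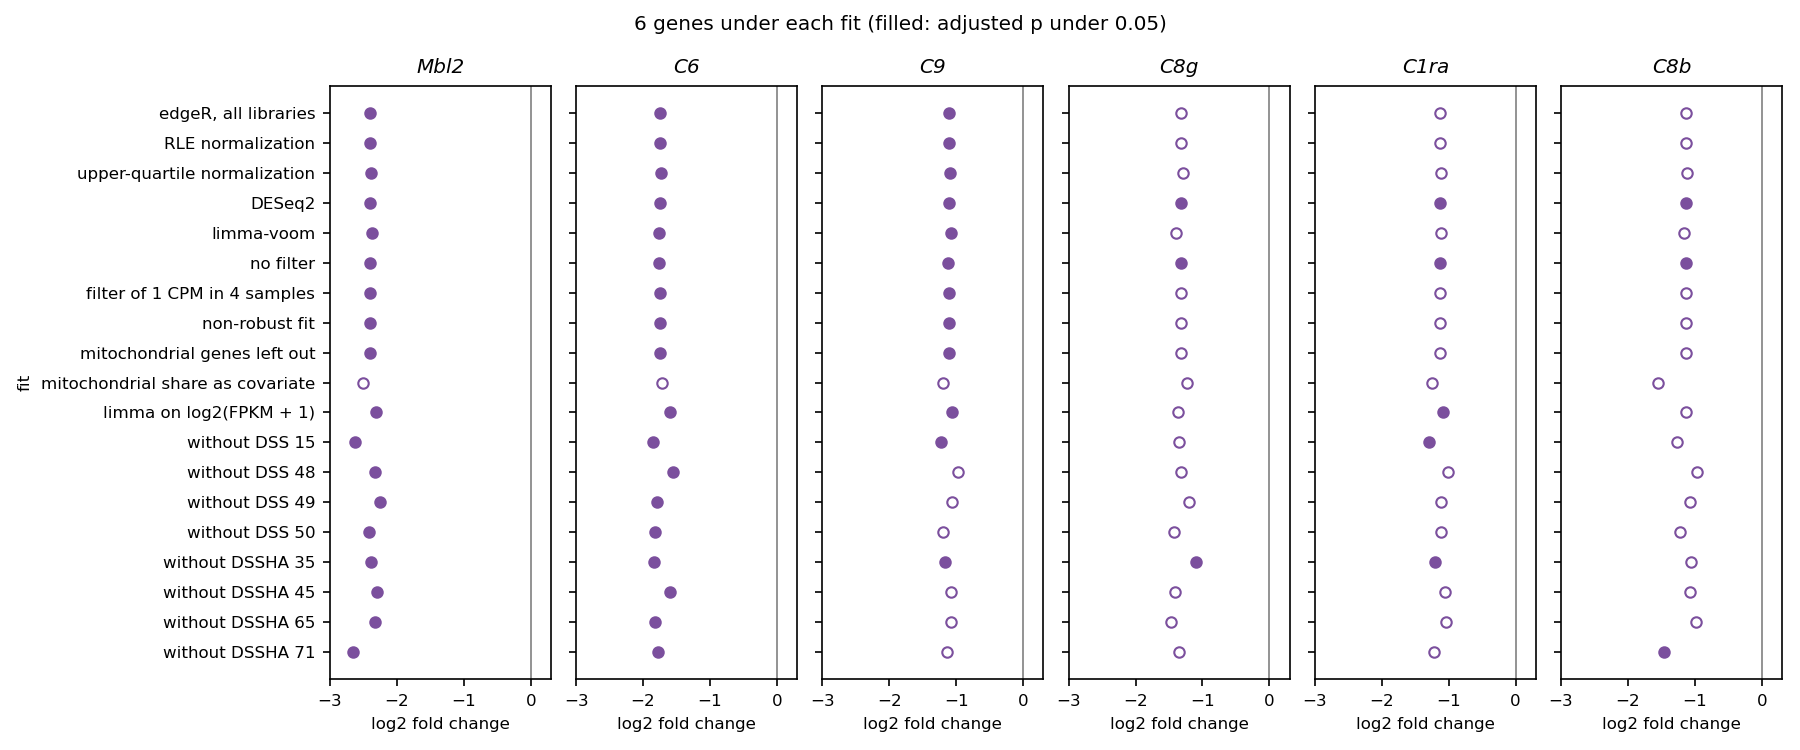
Log2 fold change of diet-alcohol over DSS for 6 complement genes in each of 19 fits, with filled symbols for an adjusted p under 0.05. Mbl2 and C6 are filled in all fits but the one with the mitochondrial share as a covariate, and the symbols of all 6 genes lie left of 0 throughout.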

How the data were processed

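Liver RNA was extracted with an RNeasy kit and sequenced as mRNA libraries, per the labels' protocols. The deposited table holds the authors' raw counts per gene and library; builds GRCm38 and mm10 are listed in the submitters' processing notes, while for the aligner, the counter and strand handling the answer is not given in the sources used here. The deposited FPKM are the authors' values, divided by gene length. The library sizes behind them follow sizes normalized between libraries and not the total counts. The log2 fold change, p-value and adjusted p-value of the deposited comparison are the authors'.

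The complement genes and all lists were chosen with earlier results of these data known. Counts were filtered with filterByExpr (11729 of 54532 genes left), TMM-normalized and tested with edgeR 4.0.16 (robust quasi-likelihood F test, R 4.3.3; Benjamini-Hochberg over all genes, threshold 0.05); intervals are at 95%. Limits from 0 counts and depths cover counting error only. Alternatives were other normalizations and filters, DESeq2 1.42.0, limma 3.58.1 (voom, and on log2(FPKM + 1)), a non-robust fit, mitochondrial genes left out or their share as a covariate, and leaving out each library.

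Values in every library are given for genes past the threshold and the 2 with the smallest p in each role; Mbl1, C8g, C8b and the untested Cfd were added after their values were seen. In simulated data for this comparison (11469 genes tested), 10.4% of 67 genes changed 2-fold were recovered, 66.7% of 66 changed 4-fold and 85.5% of 62 changed 8-fold, with 5 false calls among 109. Planned promoter motif searches were not run. Of the further complement genes, 1 that was to be named is not reported here.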

Additional observations from a re-analysis of the deposited data

How the results depend on the processing

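No paired analysis was possible because no number in the labels occurs in both groups. The count of all genes called, 148, was 441 with DESeq2, 320 without a filter, 55 with the mitochondrial covariate, and 58 to 308 when leaving out 1 library. The 3 complement genes called lower became 6 with DESeq2 and without a filter, 0 with the covariate and 2 to 5 when leaving out 1 library; those called higher stayed at 0 except for 1 without library 35. The cause of these shifts was not tested. Reversed signs concerned genes with no call. With the covariate, Colec11 stood at 0.66, Cfp at 0.22, Hc at 0.15, Serping1 at -0.0025 and Clu at -0.56. With limma-voom, Colec10 stood at -0.0050, Clu at -0.087 and C3ar1 at -0.99, and on log2(FPKM + 1) Clu at -0.062. Leaving out 1 library gave -0.20 to 0.39 for C1qc, -0.081 to 0.29 for Masp1, -0.22 to 0.41 for Colec10, -0.80 to 0.17 for Colec11, -0.42 to 0.15 for Cfp, -0.28 to 0.12 for Hc, -0.17 to 0.30 for Clu, -0.043 to 0.47 for Cd55 and -0.14 to 0.81 for C3ar1. In the simulated data with this number of libraries, changes of 2-fold were mostly missed. The genes changed there were drawn from all genes above a low level, so recovery may differ for the complement genes.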
